A study of Mus musculus with 6 samples.

Results

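The TRIM (tripartite motif) genes described here are the protein-coding genes of the deposited table whose symbol is Trim followed by a number and at most 1 letter, without Trim25 and Trim28. There were 57 of them among the 22386 genes of the table. Of these, 15 stood on a list of TRIM genes known from the literature to be induced by interferon, and the other 42 did not. The list was fixed with an earlier account of these data known, in which interferon-stimulated genes rose. RNA-seq counts came from MC38, a mouse colorectal cancer cell line. One group, shControl (3 libraries, genotype given as WT), carried a control short hairpin RNA. The other, shACSL4 (3 libraries, genotype given as an Acsl4 knockdown), carried a short hairpin RNA against Acsl4, which encodes an enzyme that joins long polyunsaturated fatty acids to coenzyme A. All cells were grown in DMEM with 10% fetal bovine serum. No hairpin sequence, clone or time after transduction was given, and no second hairpin, so an effect of Acsl4 and an effect of that hairpin or line cannot be told apart. Nothing stated that the libraries of a group were separate cultures, so p-values measure only the spread between these libraries.

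TRIM proteins share a RING finger, 1 or 2 B-box zinc fingers and a coiled coil, followed by a variable C-terminal domain that often binds the target. Most act as ubiquitin ligases, in which the RING finger passes ubiquitin from a conjugating enzyme to a substrate. The label of ubiquitin ligases does not hold for every member, since Trim14, Trim16, Trim29, Trim44 and Trim66 are known to lack a RING finger. One branch of the family is induced by interferon and acts against viruses or tunes the sensing of their nucleic acids, whereas others serve transcription, centrosomes, microtubules, neurons or muscle. Interferon acts through transcription factors, STAT2 and IRF9 among them, that bind the interferon-stimulated response element (ISRE) in promoters.

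The libraries held 40911698 to 47127672 counts. A count of 3, taken as the limit that a count of 0 allows, corresponded to 0.0637 to 0.0733 CPM (counts scaled to library size, TMM-adjusted where levels are given) and covers counting error only. Acsl4 itself read 191, 194 and 204 CPM across the 3 controls, against 132, 128 and 127 CPM across the 3 knockdown libraries. It was lower in every knockdown library (log2 fold change -0.61, SE 0.0517, edgeR adjusted p = 3.84e-06). Against the label, markers of colorectal epithelium were scarce. The 7 of 9 listed markers that were used here summed to 1.59 to 2.07 CPM in the controls and 2.35 to 3.55 CPM in shACSL4, with Cdh1 at a mean of 0.0317 and 0.0316 CPM. Of 6 fibroblast markers, Dcn and Pdgfra averaged 668 and 122 CPM in the controls, while Col1a1, Col1a2, Lum and Pdgfrb averaged 0.25 to 1.22 CPM. In shACSL4 Pdgfra was higher, at 264 CPM (adjusted p = 4.85e-08), as was Pdgfrb, and Dcn was lower, at 523 CPM (adjusted p = 0.0431). Macrophage markers summed to 5.97 to 7.65 CPM in the controls and 9.32 to 9.73 CPM in shACSL4, since Lyz2 was higher. The pan-leukocyte gene Ptprc was at a mean of 0.0158 and 0.0618 CPM, under the limit of 3 counts in each group. T cell markers summed to at most 0.583 CPM in any library and endothelial markers to at most 1.33 CPM. Ribosomal protein genes took 3.23% to 4.16% of counts in the controls and 2.88% to 3.17% in the knockdown, and mitochondrial genes 3.79% to 5.85% and 4.93% to 6.31%. The part of these differences in the results below was not tested.

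Putative response elements in promoter windows are described first, and their part in the changes below was not tested. RefSeq promoter windows on GRCm38.p6, from 250 bases before to 50 bases after a start site, were available for 42 of the 57 members (14 on the interferon list and 28 others), in 56 windows. The ISRE core, here GAAA, any 2 bases and GAAA again, read on both strands, occurred in at least 1 window of 8 of the 14 interferon-listed genes and of 1 of the 28 others, Trim2. By window, 9 of 16 and 1 of 40 held it, against 3.44% of all 32851 windows in the RefSeq table. Listed genes with a window but no core were Trim56 and Trim69, which rose, and Trim34b, Trim30b, Trim30c and Trim38. A longer form, the core followed by CT, was in windows of 3 interferon-listed genes, Trim30a, Trim30d and Trim34a, in 0 windows of the others and in 0.271% of all windows. A match describes letters in a window and does not show binding, and a window without one says nothing of sites elsewhere.

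The stretches below show 6 of the interferon-listed windows, chosen because they cover the members with the 3 largest rises (Trim30a, Trim30d, Trim34a), 1 of the near-identical windows of Trim5, Trim12a and Trim12c, and the listed genes outside that cluster that hold a match (Trim21, Trim26). Each is written 5′ to 3′ on the strand of the gene, with the ISRE core in capitals on whichever strand it reads, up to 60 bases on each side and at most 30 bases past the start site. They lie on GRCm38.p6 at chr7:104465164-104465289 (minus strand, Trim30a), chr7:104507821-104507950 (minus, Trim30d), chr7:104244407-104244486 (plus, Trim34a), chr7:104353320-104353438 (minus, Trim12c), chr7:102565453-102565529 (minus, Trim21) and chr17:36836926-36837061 (plus, Trim26).
Trim30a: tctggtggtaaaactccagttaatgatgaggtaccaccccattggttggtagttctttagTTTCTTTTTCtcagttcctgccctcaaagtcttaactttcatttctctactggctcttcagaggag
Trim30d: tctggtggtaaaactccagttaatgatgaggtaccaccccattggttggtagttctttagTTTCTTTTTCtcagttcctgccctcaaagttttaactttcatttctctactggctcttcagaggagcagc
Trim34a: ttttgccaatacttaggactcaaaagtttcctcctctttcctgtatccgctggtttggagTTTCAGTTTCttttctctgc
Trim12c: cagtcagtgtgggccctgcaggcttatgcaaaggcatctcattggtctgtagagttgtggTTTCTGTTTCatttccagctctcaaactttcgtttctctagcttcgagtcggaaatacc
Trim21: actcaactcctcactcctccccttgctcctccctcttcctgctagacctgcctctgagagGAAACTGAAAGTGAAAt
Trim26: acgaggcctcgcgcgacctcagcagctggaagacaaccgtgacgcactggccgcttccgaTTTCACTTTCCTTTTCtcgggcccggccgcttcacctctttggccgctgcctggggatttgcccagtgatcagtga

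The match began 36 bases before the start site in Trim30a, 41 before in Trim30d and 29 before in Trim12c. In Trim34a and Trim21 it began 10 and 13 bases past the start site, and in Trim26 it lay 160 bases before. Trim21 and Trim26 each held 2 overlapping cores, which is why their capitals run longer. The windows are not independent of each other, because the chromosome 7 genes are near copies. The Trim30a window printed above and that of Trim30d were identical at 276 of 294 aligned bases, and the Trim12a and Trim5 windows were identical over all 241 aligned bases. The Trim12a window matched that of Trim12c at 247 of 260 bases.

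Interferon-listed TRIM genes were higher in shACSL4 almost throughout, while most other TRIM genes stayed near their control level. Of the 15 listed genes, 12 had enough counts to test and 11 of those rose, with 0 lower, under edgeR's quasi-likelihood test at adjusted p under 0.05. Among all 14289 genes tested, 15.4% were called higher and 13.6% lower. In 8 of the 12 the rise was at least 1 on the log2 scale, which 4.94% of all tested genes reached. Every knockdown library lay above every control in 11 of the 12, beside 22% of all tested genes. The median log2 fold change of the 12 was 1.74, beside -0.01 for all genes tested. Of the 42 other members 30 were tested, 5 rose, 3 fell and 22 did not pass, with a median of -0.06. The members that did not pass the low-count filter include interferon-listed ones (Trim30b, Trim30c and Trim38), so the counts do not speak for all 57. In bulk RNA a changed share of expressing cells and a changed amount of RNA per cell cannot be told apart.

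**Figure D1:**
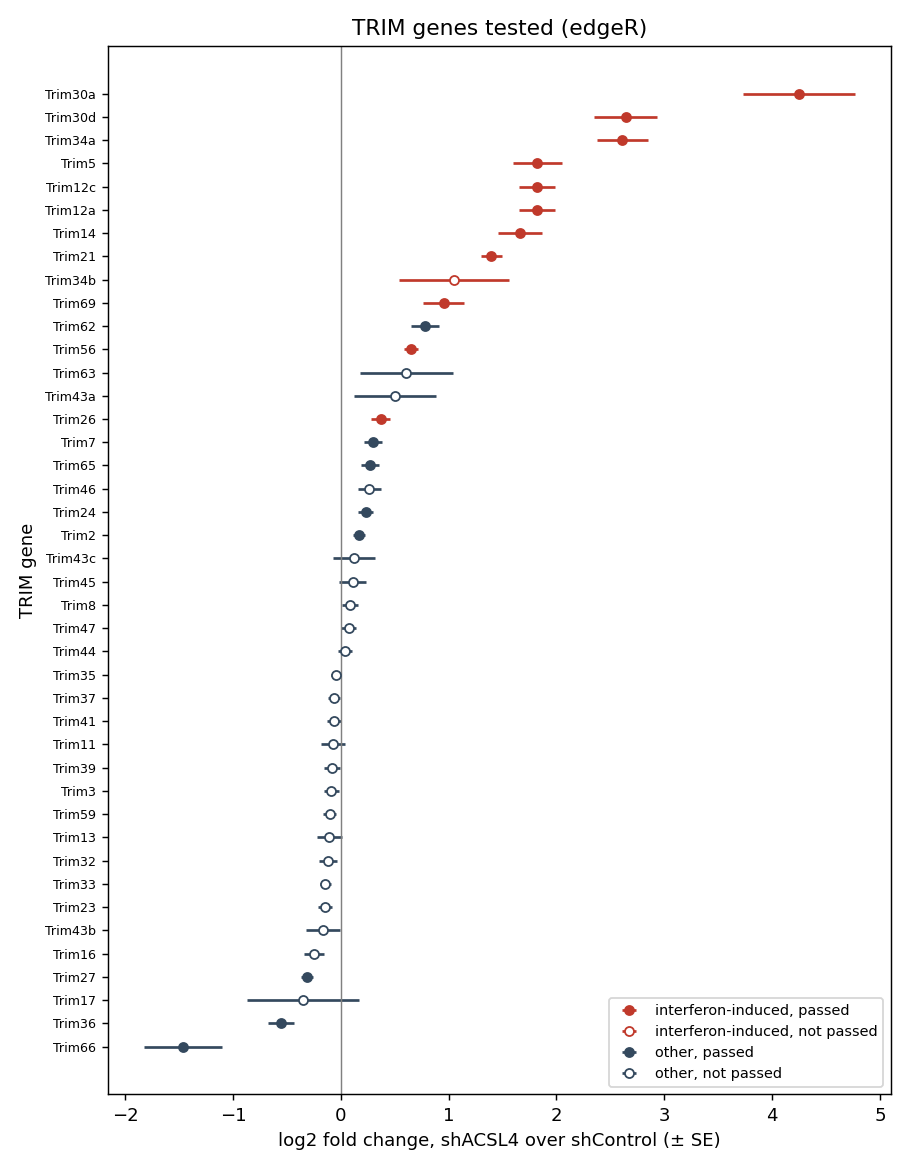
Log2 fold change (shACSL4 over shControl, x axis) of each of the 42 tested TRIM genes (y axis, ordered by value), with bars of 1 SE; red marks the interferon list, dark blue the others, and filled points passed edgeR's test. The red points run from 0.37 for Trim26 to 4.25 for Trim30a, and only Trim34b among them is open; 5 dark blue points are filled above 0 and 3 below.

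The largest rises were in a gene cluster on chromosome 7. It runs over 263.4 kb from Trim34a to Trim30d and holds 10 genes of the table, 9 of them TRIM genes of the interferon list. Of the 7 that could be tested, 6 rose, beside 15.4% of all tested genes, and their median log2 fold change was 1.82. Several of these genes share sequence, so their rises are not fully independent. Coordinates in the following paragraphs are those of the deposited table, on GRCm39.

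Trim30a (ENSMUSG00000030921, chromosome 7, 104058232 to 104114400) encodes a mouse TRIM protein that restrains Toll-like receptor signalling. Its 3 controls read 2.73, 2.96 and 4.26 CPM, while shACSL4 1, 2 and 3 read 55.7, 36.4 and 97.0 CPM. The lowest knockdown library was far above the highest control, but the knockdown libraries themselves differed 2.66-fold. Mean levels were 3.32 ± 0.825 and 63.0 ± 30.9 CPM (SD, n = 3), a 19-fold rise (log2 fold change 4.25, SE 0.519, adjusted p = 0.0057).

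Trim30d (104119221 to 104157056), its neighbour and paralogue, was at 7.74, 6.00 and 7.51 CPM in the controls and at 43.8, 29.8 and 58.9 CPM in shACSL4. All knockdown libraries lay above all controls, in the same order as for Trim30a. The rise was 6.23-fold (log2 fold change 2.64, SE 0.292, adjusted p = 0.0019). Of the 100-base windows in the longest GENCODE M21 transcript of Trim30d, 5.53% also occur in Trim30a, and 4.79% the other way. The agreement of the pair is therefore not fully independent. The remaining paralogues of this kind were close to silent. Trim30b had 0 counts in every control and 6, 4 and 11 in shACSL4 1 to 3. Its observed knockdown mean was 2.22-fold the limit of 3 counts per library, without allowance for counting error in the knockdown libraries. It was too low to test here, and the authors' deposited table gave it an adjusted p of 0.0201. Trim30c had 3 counts in shACSL4 1 and 0 in the other 5 libraries.

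Trim34a (103893664 to 103911441), related to the human interferon-induced TRIM34, was at 3.25, 2.81 and 3.46 CPM in shControl and at 17.7, 13.9 and 26.5 CPM in shACSL4. The groups did not overlap, and the rise was 6.1-fold (log2 fold change 2.61, SE 0.236, adjusted p = 5.74e-05). Its near copy Trim34b was at 0.261, 0.514 and 0.17 CPM in the controls and at 1.04, 0.466 and 0.465 CPM in the knockdown. These groups overlapped, and the log2 fold change of 1.05 (SE 0.508) did not pass the test (adjusted p = 0.145). Windows of 100 bases in the longest GENCODE M21 transcript of Trim34b were found word for word in Trim34a for 32.6% of its length, and 42.0% of those of Trim34a recur in other genes (22.6% in Trim34b). The split of reads between these copies is therefore uncertain, for the rise of Trim34a too.

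Trim5, Trim12a and Trim12c are the mouse relatives of primate TRIM5, whose product binds incoming retroviral capsids. Trim5 (103912593 to 103937301) was at 0.997, 0.685 and 0.92 CPM in shControl and at 3.04, 2.73 and 3.47 CPM in shACSL4. Trim12a (103949101 to 103964673) was at 5.65, 6.27 and 5.93 CPM in the controls and at 19.9, 16.1 and 26.8 CPM in the knockdown. Trim12c (103987961 to 104002569) was at 7.79, 5.73 and 5.47 CPM and at 22.2, 18.2 and 26.7 CPM. In each of these genes every knockdown library exceeded every control. Log2 fold changes were almost equal, at 1.82 for each gene, with SE of 0.23 for Trim5, 0.167 for Trim12a and 0.166 for Trim12c. The adjusted p-values were 8.82e-05, 1.62e-05 and 1.68e-05. Between 7.64% and 12.7% of their 100-base windows also occur in another gene, so this agreement is not fully independent.

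The only other gene of the table inside the cluster was the long noncoding RNA Gm15133, which overlaps Trim12a on the opposite strand by 483 bases. It was called higher (log2 fold change 4.92), but on only 44 counts in all. At that depth it can have passed the low-count filter only through the knockdown libraries. Its call therefore adds little, and the size of its fold change is uncertain. Whether the counting used strand was not given in the sources used here. The nearest genes annotated as protein-coding on either side, the olfactory receptor loci Or52b6-ps1 and Or52h9, were too low to test.

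**Figure D2:**
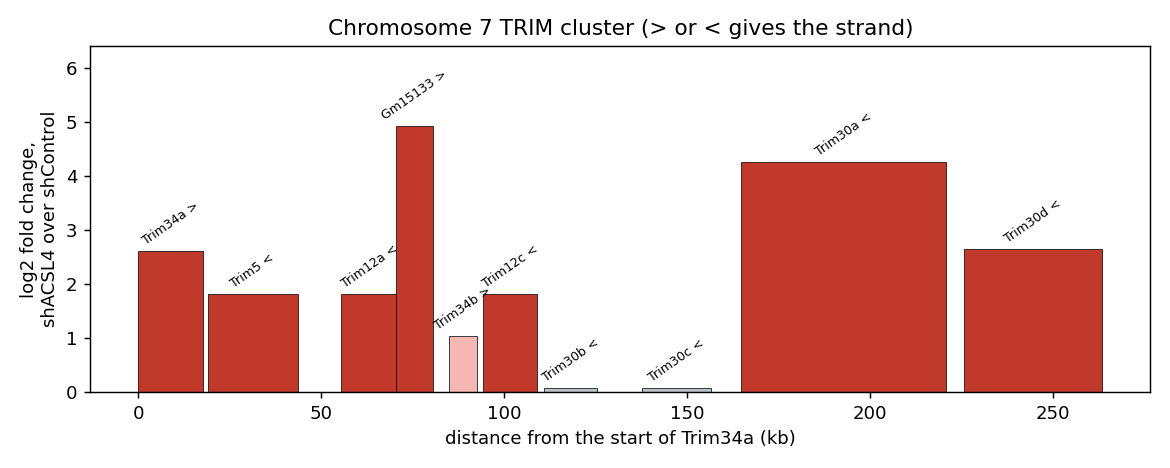
Genes of the table across the chromosome 7 cluster, drawn to scale by distance from the start of Trim34a (x axis, kb), with bar height giving the log2 fold change (knockdown over control, y axis). Dark red bars passed the test, the pale bar (Trim34b) did not, and grey slivers mark Trim30b and Trim30c, which were too low to test. The tallest bar, the noncoding Gm15133, rests on only 44 counts in all, so its height is uncertain.

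Outside this cluster 6 more genes stood on the list. The 5 that could be tested all rose, beside 15.4% of all tested genes, with a median log2 fold change of 0.95. Trim21 (chromosome 7, 102207128 to 102214693, 1679 kb before the cluster) encodes the cytosolic receptor for antibody-coated viruses. It was at 16.4, 15.3 and 14.6 CPM in shControl and at 40.3, 35.2 and 46.2 CPM in shACSL4. The groups stood well apart, and the rise was 2.63-fold (log2 fold change 1.40, SE 0.0997, adjusted p = 8.91e-07), the smallest adjusted p among the 42 tested members.

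Trim14 (chromosome 4, 46493781 to 46536141), an adaptor of the mitochondrial antiviral signal in human cells, was at 1.33, 1.30 and 1.60 CPM in the controls and at 3.62, 4.29 and 5.43 CPM in the knockdown. It rose 3.16-fold without overlap (log2 fold change 1.66, SE 0.205, adjusted p = 7.51e-05). Over 9852 bases it lies opposite Nans, a gene with 16725 counts against 766 for Trim14, so antisense reads could weigh on its level. Nans fell, by 0.24 on the log2 scale.

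Trim69 (chromosome 2, 121991181 to 122009508), which in human cells inhibits vesicular stomatitis virus, was at 2.45, 1.88 and 1.77 CPM in shControl and at 4.10, 3.31 and 4.40 CPM in shACSL4. The groups were close but did not overlap (1.94-fold, log2 fold change 0.95, SE 0.194, adjusted p = 0.00288). Its neighbour 7.6 kb away, the MHC class I light chain gene B2m, was also higher, by 0.86 on the log2 scale.

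Trim56 (chromosome 5, 137134498 to 137145063) promotes signalling by the DNA sensor adaptor STING. It had the highest control FPKM of the listed genes, a mean of 8.36, and its CPM stood at 76.7, 80.0 and 77.0 in the controls and at 121, 112 and 134 in shACSL4. It rose 1.57-fold (log2 fold change 0.65, SE 0.0664, adjusted p = 1.55e-05). Trim26 (chromosome 17, 37148026 to 37170290), which is known to target IRF3, was at 47.5, 48.8 and 57.8 CPM and at 62.6, 62.4 and 74.2 CPM. This was the smallest rise on the list, 1.29-fold (log2 fold change 0.37, SE 0.0894, adjusted p = 0.00864). Trim38, a brake on Toll-like receptor signalling, had 2 counts in shControl 1, 2 in shACSL4 2 and 0 in the other libraries, so no difference was detectable at this depth.

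**Figure D3:**
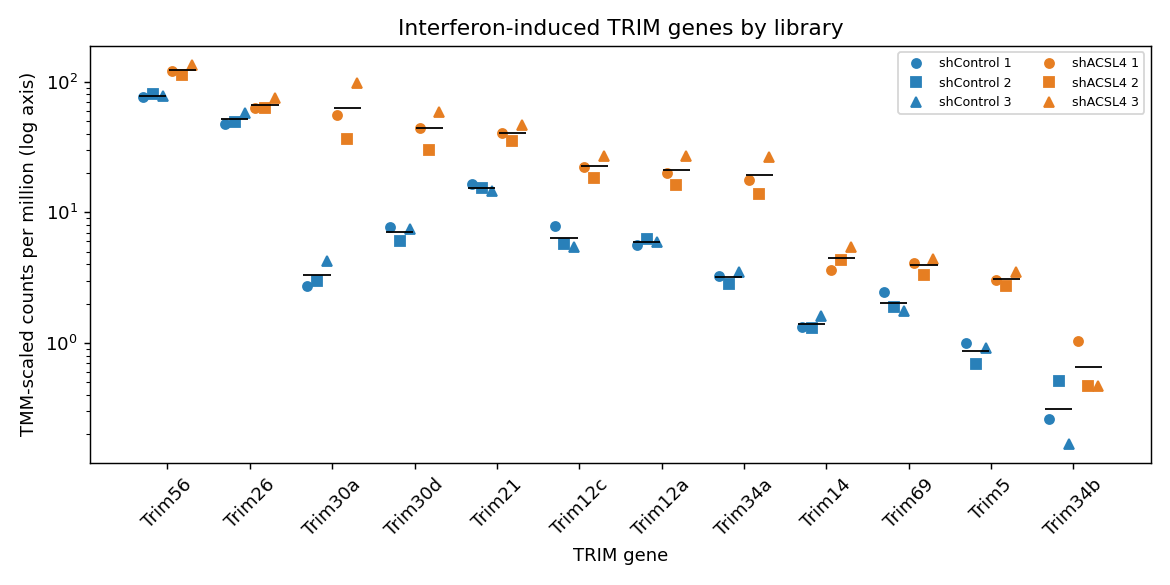
TMM-scaled CPM (y axis, log scale) of the 12 tested interferon-listed TRIM genes (x axis) in each library, blue for shControl and orange for shACSL4, with black lines at the group means. Orange lies wholly above blue in 11 genes and overlaps it in Trim34b, and shACSL4 3 (triangles) is the highest orange point in 11 genes.

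The knockdown libraries followed a common order in most of the listed genes. How often this order holds over all tested genes is not given here. shACSL4 3 was the highest of the 3 in 11 of the 12 listed genes, Trim34b being the exception. shACSL4 2 was the lowest in 10, with Trim14 and Trim34b as exceptions. The order is not particular to the list. Unlisted members that did not pass the test, Trim8, Trim11, Trim33, Trim35, Trim37 and Trim39, showed it with smaller differences, while others such as Trim47 and Trim62 did not. The highest knockdown library exceeded the lowest 1.19-fold in Trim26, 1.91-fold in Trim34a and 1.98-fold in Trim30d. Between the controls these ratios were 1.22, 1.23 and 1.29. In Trim26, Trim5, Trim69 and Trim34b the controls differed more than the knockdown libraries. Among transducers of interferon signalling, Stat2 and Irf9 showed the same order, while Tyk2, Ifnar1, Ifnar2 and Jak1 did not. Stat2 was at 146, 118 and 201 CPM and Irf9 at 85.6, 71.4 and 101 CPM in the knockdown, and these rose by 1.72 (adjusted p = 0.00313) and 1.90 (adjusted p = 9.27e-05) on the log2 scale. Of the kinases and receptors of this pathway, Tyk2 rose by 0.28 (adjusted p = 0.019), and Ifnar1, Ifnar2 and Jak1 did not pass the test.

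Among the other 42 members, the share called was near that of all genes. The counts of 5 higher and 3 lower of 30 tested correspond to 16.7% and 10%, near the 15.4% and 13.6% of all tested genes. Every knockdown library lay above every control in 6 of the 30 and below in 8, while this held for 22% and 20.8% of all tested genes, or 42.8% in either direction.

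Trim62 (chromosome 4, 128777373 to 128805121), a ligase of the antifungal adaptor CARD9 and a tumour suppressor candidate in epithelia, had the largest rise outside the list. It was at 8.17, 7.59 and 8.31 CPM in shControl and at 12.8, 16.4 and 12.2 CPM in shACSL4, with no overlap (1.72-fold, log2 fold change 0.78, SE 0.126, adjusted p = 0.000582). Here shACSL4 2 was the highest library, unlike in the interferon-listed genes. Its window held no ISRE core, and neither did those of the listed genes Trim56 and Trim69, which rose.

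The other 4 rises were small. Trim7, known to bind glycogenin, rose by 0.30 (SE 0.0876, adjusted p = 0.022). Trim65, a ligase of the RNA sensor MDA5, rose by 0.27 (SE 0.0851, adjusted p = 0.0315). Trim24, a histone reader and co-regulator of nuclear receptors, rose by 0.23 (SE 0.0664, adjusted p = 0.0203). Trim2, which carries an NHL repeat and is known for its role in axons, rose by 0.17 (SE 0.0559, adjusted p = 0.0395). Each of these 4 calls was lost on leaving out certain single libraries. Trim7 had adjusted p = 0.0605 without shControl 2, 0.106 without shACSL4 1 and 0.0675 without shACSL4 2. Trim65 and Trim24 were lost without shControl 1, shControl 2, shACSL4 2 or shACSL4 3, at adjusted p of up to 0.164 and 0.0941. Trim2 was lost without any library other than shControl 3, at up to 0.142. The authors' deposited table gave Trim2 an adjusted p of 0.066, so it did not pass there. Trim65 shares 5365 bases of its locus with Trim47 on the same strand. Trim7 lies 9.8 kb from the interferon-induced GTPase gene Irgm1, which rose by 1.47.

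The members that fell were Trim66, Trim36 and Trim27. Trim66, a RING-less relative of Trim24 known from testis, was at 0.926, 0.979 and 1.26 CPM in shControl and at 0.314, 0.489 and 0.338 CPM in shACSL4. Every knockdown library was lower, on counts of only 13 to 52 per library (log2 fold change -1.46, SE 0.36, adjusted p = 0.00868). Trim36, a microtubule-associated ligase, was at 12.5, 14.5 and 11.8 CPM in the controls and at 8.64, 9.97 and 7.87 CPM in the knockdown (log2 fold change -0.56, SE 0.123, adjusted p = 0.00476), again without overlap. Trim27, first known as a fusion partner of the RET kinase, read 68.4, 70.1 and 67.1 CPM in the controls, against 55.7, 55.1 and 54.4 CPM in shACSL4. Its log2 fold change of -0.32 (SE 0.0551, adjusted p = 0.001) was small but exceeded the spread within each group.

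**Figure D4:**
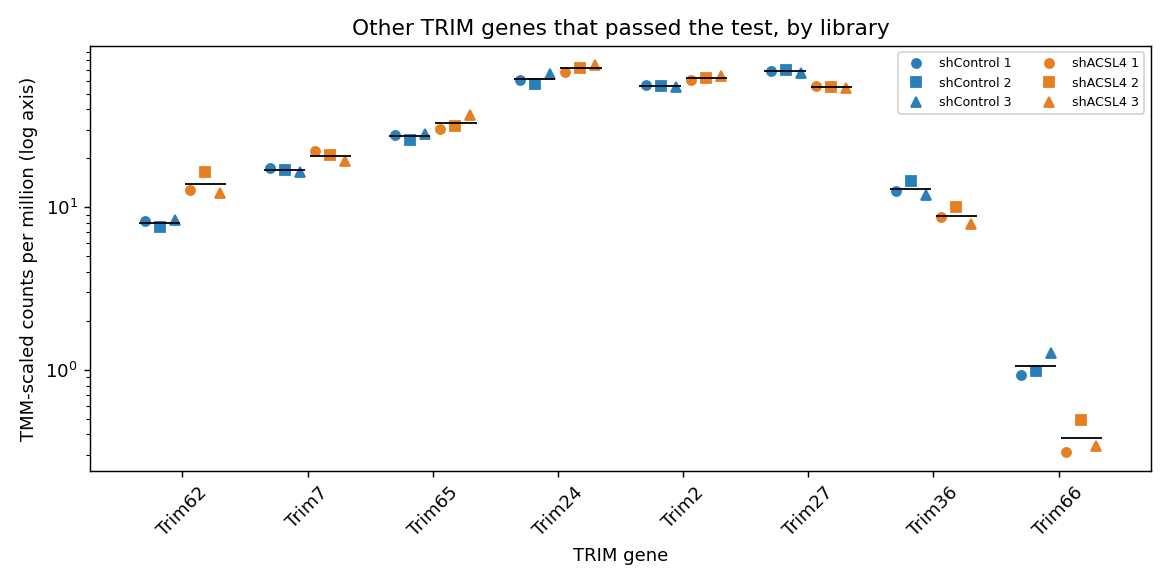
TMM-scaled CPM (y axis, log scale) of the 8 TRIM genes outside the interferon list that passed the test (x axis), by library, blue for shControl and orange for shACSL4, with black lines at the group means. The groups do not overlap in any of the 8, but the distance is visibly larger in Trim62, Trim36 and Trim66 than in Trim7, Trim65, Trim24 and Trim2.

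The PHD and bromodomain branch thus held 1 member that rose (Trim24), 1 that fell (Trim66) and Trim33, the SMAD4-binding member, at log2 fold change -0.14 (adjusted p = 0.0523). In the NHL branch Trim2 rose, Trim3 and Trim32 did not pass, and Trim71, a regulator of stem cells, had 4 counts in all. The transmembrane members Trim13 and Trim59 did not pass either. The 22 members that did not pass ranged from -0.35 to 0.61 in log2 fold change and from 0.0523 to 0.68 in adjusted p, and 19 of them were within 0.3 of 0. Those farthest from 0 were the low-count genes Trim63 (0.61, SE 0.428), Trim43a (0.50, SE 0.382) and Trim17 (-0.35, SE 0.52). In 6 of the 22 the groups did not overlap: Trim46 above, and Trim16, Trim23, Trim33, Trim35 and Trim59 below. The rest were Trim3, Trim8, Trim11, Trim13, Trim32, Trim37, Trim39, Trim41, Trim43b, Trim43c, Trim44, Trim45 and Trim47.

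Per length, the family was led by members outside the interferon list. In the authors' FPKM values Trim59, an endoplasmic reticulum protein tied to proliferation, was at 38.8 ± 1.11 in shControl and 36.4 ± 2.05 in shACSL4. Trim35 was at 27.9 ± 0.296 and 27.2 ± 0.479 FPKM, and Trim37, a regulator of centrosomes, at 17.4 ± 0.685 and 16.9 ± 0.563 FPKM. Trim44 followed at 15.8 ± 0.677 and 16.3 ± 1.00 FPKM. In the controls Trim59 and Trim35 stood clear of the next 2 by far more than these SDs.

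The interferon-listed genes moved up within this order. Trim30a was at 0.802 ± 0.189 FPKM in the controls and 15.4 ± 7.57 FPKM in shACSL4, which placed it beside Trim44 in the mean, with a spread that spans several members. Trim56 went from 8.36 ± 0.232 to 13.2 ± 1.21 FPKM, Trim30d from 1.88 ± 0.252 to 11.8 ± 3.90 and Trim21 from 4.13 ± 0.289 to 10.96 ± 1.5. In shACSL4 1, 2 and 3 Trim56 read 13.1, 12.1 and 14.5 FPKM and Trim21 10.9, 9.47 and 12.5 FPKM, so Trim56 was above Trim21 in each library. Trim30d, at 11.7, 7.91 and 15.7 FPKM, was above or below them depending on the library. Summed over the 15 listed genes, the controls reached 28.9, 27.6 and 28.6 FPKM, against 79.4, 64.2 and 104 FPKM in shACSL4 1, 2 and 3. Summed over the other 42 it was 233, 233 and 232 in the controls and 229, 223 and 231 in the knockdown. The listed genes therefore held 10.6% to 11% of the family's summed FPKM in the controls and 22.3% to 31% in shACSL4.

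**Figure D5:**
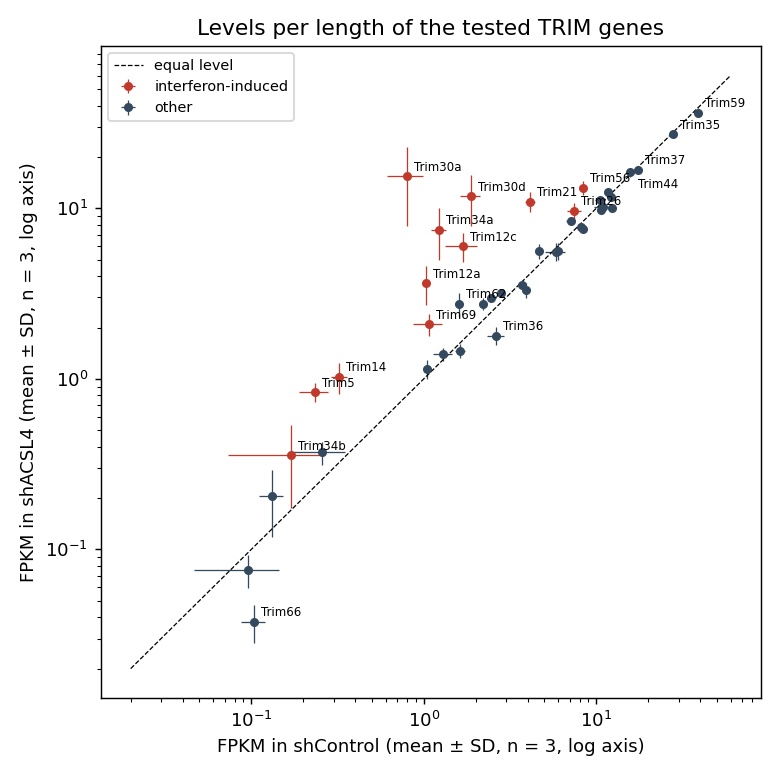
FPKM of the 42 tested TRIM genes in shControl (x axis) and shACSL4 (y axis), both on log scales, as mean ± SD of 3 libraries; red marks the interferon list and the dashed line equal levels. The red points lie above the line, with Trim30a farthest from it, while the abundant members Trim59, Trim35, Trim37 and Trim44 lie on or near it.

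The remaining 15 members were too low to test, with 2 to 68 counts over all 6 libraries. Besides Trim30b, Trim30c and Trim38 these were Trim9, Trim10, Trim15, Trim29, Trim40, Trim42, Trim50, Trim55, Trim58, Trim71, Trim72 and Trim75. The best covered of them was Trim15, at 7, 8 and 8 counts in shControl and 17, 17 and 11 in shACSL4. It lies 1.3 kb from Trim26, within the same cluster as Trim10 and Trim40 on chromosome 17. Members known from muscle, Trim55, Trim63 and Trim72, had at most 37 counts in any library.

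TRIM proteins that carry other names were also looked at. Of 8 listed genes 4 were tested, 1 rose and 1 fell, beside 15.4% higher and 13.6% lower over all tested genes. Pml, the interferon-induced organiser of nuclear bodies, was at 37.4, 34.8 and 45.02 CPM in shControl and at 57.9, 51.5 and 74.7 CPM in shACSL4 (log2 fold change 0.65, SE 0.152, adjusted p = 0.016), again highest in shACSL4 3. Without shControl 1 or shControl 2 the number of changed genes on this list was 1. Mid2, a microtubule-binding ligase, read 23.6, 22.6 and 21.1 CPM in the controls, against 9.10, 8.57 and 8.12 CPM in shACSL4, with a log2 fold change of -1.39 (SE 0.0945) that passed the test at adjusted p = 6.07e-07. Its paralogue Mid1 was at 15.1 ± 1.39 and 13.9 ± 0.751 CPM (adjusted p = 0.424).

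The enzymes that supply ubiquitin to these ligases were called at a share near that of all genes. Of 31 listed activating and conjugating enzyme genes 30 were tested. Of these 2 rose and 5 fell, beside 15.4% higher and 13.6% lower over all tested genes, so rises were the rarer call here. In either direction this is 23.3%, beside 29.1% of all tested genes, and the median log2 fold change of the enzymes was -0.09. Ube2l3 rose by 0.19 (adjusted p = 0.0379) and Ube2q1 by 0.19 (adjusted p = 0.0136). The activating enzyme gene Uba6 fell by 0.28 (adjusted p = 0.00156), Ube2q2 by 0.37 (0.00177), Ube2t by 0.30 (0.00961), Ube2g1 by 0.21 (0.0184) and Ube2v2, a partner of Ube2n in making chains linked through lysine, by 0.44 (0.0141). The conjugating enzymes most used by TRIM ligases in vitro, Ube2d1, Ube2d2a, Ube2d3 and Ube2n, did not pass the test. The number changed was 13 without shControl 3, 4 without shControl 2 and 3 without shACSL4 3, and the number over all genes moved with it, from 4155 to 5477, 3185 and 2944.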

How the data were processed

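RNA-seq libraries of ribosome-depleted RNA, primed with random hexamers, were made from 3 shControl and 3 shACSL4 samples of MC38 cells. Per the submitters' processing notes, CASAVA, HISAT2 and DESeq2 were used with GRCm39. Strandedness, annotation release and the counting program were not given in the sources used. The deposited table holds raw counts per gene, whole numbers in every cell, and FPKM values that the authors made from them with a gene length they did not define. The log2 fold changes and p-values in the authors' deposited table were used for Trim30b and Trim2 alone.

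Counts were fitted in R 4.3.3 with edgeR 4.0.16 (robust quasi-likelihood test, two-sided, group as the only term, TMM scaling, genes kept by filterByExpr with min.count 10 and min.total.count 15). P-values were adjusted by Benjamini-Hochberg over all 14289 genes left, with a threshold of 0.05. SE was taken as the size of the log2 fold change over root F. Levels are TMM-scaled CPM, mean ± SD. Replicate numbers were not used as pairs, since the same-numbered libraries deviated together by correlations of 0.0637 to 0.126, not all above 0.1. Alternatives were DESeq2 1.42.0, limma-voom (limma 3.58.1), other scalings and filters, protein-coding genes alone, a replicate block and each library left out. The workflow was tested on simulated data.

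Members, lists and the naming rule were chosen with earlier results of these data known, including a rise of interferon-stimulated genes. The rule gave values per library for interferon-listed members and for others with a log2 change of at least 0.5. It gave statistics for the other changed members, and ranges for the rest. Trim27, with a smaller change, was given per library outside this rule. Genes described as neighbours, and Trim33, Trim15 and Mid1, were named after their values were seen. Promoter windows are RefSeq's on GRCm38.p6, and 100-base windows came from GENCODE M21 transcripts. No coordinate was converted between builds. A gene of the interferon pathway list and a promoter motif are not reported here.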

Additional observations from a re-analysis of the deposited data

How the results depend on the processing

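The 11 rises on the interferon list kept their direction and their side of the threshold under every alternative run, including each library left out, and so did Trim62, Trim27 and Trim36. Trim66 did so wherever it was tested, since a filter of 1 CPM in 3 libraries removed it. With no filter 12 listed genes were higher, Trim30b being added (adjusted p = 0.017). With no filter Trim2 had adjusted p = 0.0726, and 1 gene among TRIM proteins with other names was changed. The median of the other members was -0.0481 with the filter of 1 CPM. With the replicate block 5 other members were lower (5 over the family), Trim33 (adjusted p = 0.0288) and Trim16 (0.0426) being added. Under the same block 13 enzymes of ubiquitin supply were changed. Over all genes tested, those changed went from 4155 to 5163 with the block, and those lower from 1950 to 2547. Every library correlated best with its own number in the other group, a hint from the data and not from the design. With each library left out, the other members higher numbered 1 to 5, all TRIM members higher 12 to 16, and members lower stayed at 3. TRIM proteins with other names changed numbered 1 to 2 and enzymes 3 to 13. The median of the other members was -0.0477 to -0.0353, and genes lower over the whole table numbered 1252 to 2659. Trim11 ranged from -0.16 to 0.029 and Trim44 from -0.00726 to 0.077, which turned their direction, and neither passed the test in any of these fits. The cause of these shifts was not tested. Depth limits the 15 untested members.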
